A study of Macaca fascicularis with 2 samples.

Results

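Cells with much *CRTAC1* RNA and few detected genes were examined in single-cell data of cartilage and intervertebral disc. They were chosen by 2 measured values, their *CRTAC1* level and their number of detected genes, among cells that carried 1 of the tags A951 to A954 and had fewer than 5 reads of *KRT19*, a keratin gene of notochordal cells. Cells with 2000 or fewer genes detected and *CRTAC1* at 1000 or more reads per 1000000 reads of the cell (rpm) are called few-gene *CRTAC1*-high cells. There were 110 of them among 5311 such cells and among 5723 cells in the library, which is 2.07% of the 5311 (exact 95% binomial interval 1.71 to 2.49%). Both values are therefore given as a description only.

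The cells came from articular cartilage (AC) of the femoral condyle and nucleus pulposus (NP) of a lumbar disc of 2 wild-type male cynomolgus monkeys, both 3 years old. By the labels and the study's methods 3 tissue samples were pooled, cartilage of both animals and the disc of 1, whereas 4 tags were found, and no source used here pairs tags with tissues. All cells were read as 1 library, so cells are not replicates, no test was made, and every interval covers counting error only. The tags served as a split of the library. The reads hold no molecular identifiers, so copies made by PCR were counted.

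*CRTAC1* encodes cartilage acidic protein 1, a glycoprotein secreted into the matrix by chondrocytes. Cartilage is layered. Cells near the joint surface make lubricin from *PRG4* and a thin matrix of small collagen fibrils, while deeper chondrocytes make most of the type II, IX and XI collagen and aggrecan that carry load. In single-cell data the number of detected genes depends on the reads a cell gave, and a raised share of mitochondrial reads is commonly taken as a mark of cell damage.

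The comparison groups were drawn at the same limits. The 313 few-gene *CRTAC1*-low cells had 2000 or fewer genes and *CRTAC1* under 500 rpm. The 928 many-gene *CRTAC1*-high cells had more than 2000 genes and *CRTAC1* at 1000 or more rpm, and the 3515 many-gene *CRTAC1*-low cells had more than 2000 genes and *CRTAC1* under 500 rpm. Another 30 cells of few genes lay between 500 and 1000 rpm. At the limits, the few-gene *CRTAC1*-high cell with the least *CRTAC1* had 1004 rpm, or 62 reads, and the next cell of few genes below the limit had 984 rpm, or 55 reads. The one with the most genes had 1991 genes, and the next *CRTAC1*-high cell above the limit had 2008.

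**Figure D1:**
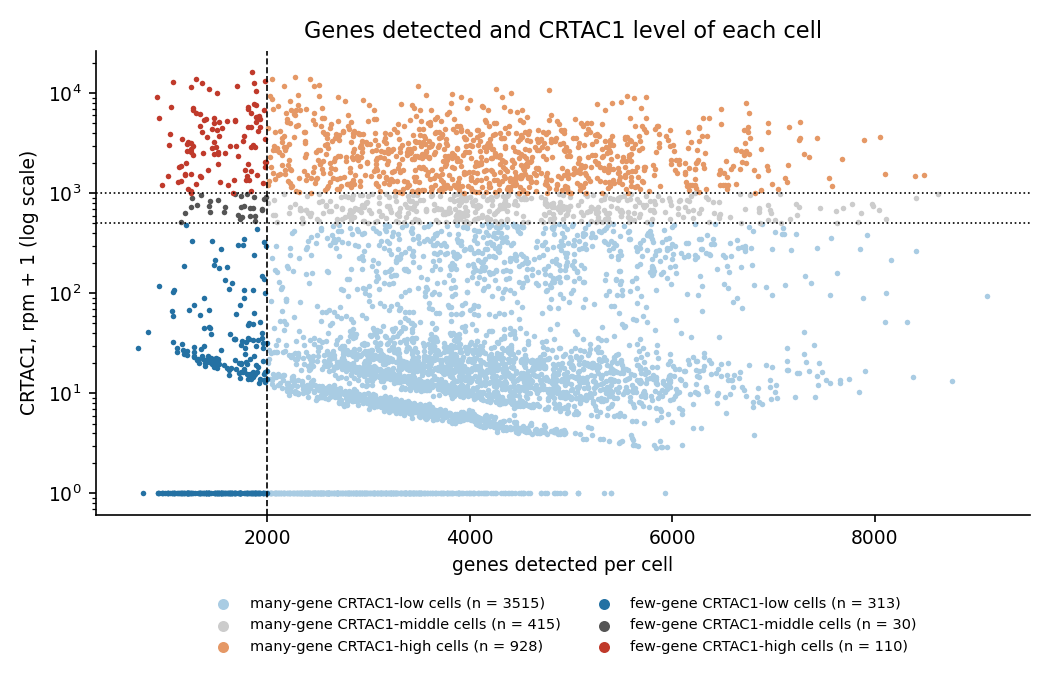
Each point is 1 of the 5311 tagged cells with fewer than 5 *KRT19* reads, by genes detected (horizontal axis) and *CRTAC1* in rpm plus 1 (vertical axis, log scale). The dashed line is the limit of 2000 genes and the dotted lines are 1000 and 500 rpm. *CRTAC1*-high cells lie on both sides of the limit of 2000 genes, and the 110 few-gene *CRTAC1*-high cells are the upper left field.

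Both groups of few genes were cut at 2000 genes, which also bears on reads, so their similar depth is a description only. The few-gene *CRTAC1*-high cells had a median of 1509.5 genes, with a range of 913 to 1991, against 1563 genes in the few-gene *CRTAC1*-low cells. Their median was 50498.5 reads, with a range of 28803 to 83619, against 52896 reads. The many-gene *CRTAC1*-high cells had medians of 4183 genes and 235008 reads. The 10 most abundant genes of a cell took a median of 16.2% of its reads in few-gene *CRTAC1*-high cells, 16.3% in few-gene *CRTAC1*-low cells and 14.6% in many-gene *CRTAC1*-high cells. *CRTAC1* itself had a median of 3228 rpm in the chosen cells, from 1004 to 16388, which was a median of 168.5 reads per cell.

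Since the groups were chosen by the number of detected genes, that number at a fixed total of reads is a description only. When every cell was thinned to 50000 reads, 57 of the 110 few-gene *CRTAC1*-high cells were deep enough and 53 were left out. Those 57 had a median of 1640 genes, against 1598 in 180 few-gene *CRTAC1*-low cells and 2696 in 927 many-gene *CRTAC1*-high cells. At this total, 107 (11.5%) of the 927 many-gene *CRTAC1*-high cells showed 2000 or fewer genes. So did 290 (8.26%) of 3512 many-gene *CRTAC1*-low cells. Before thinning, the same 57 and 927 cells had medians of 1811 and 4184 genes.

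The mitochondrial share of reads, over 13 mitochondrial genes, was low in nearly all of these cells. Its median was 1.85% in few-gene *CRTAC1*-high cells, with a range of 0.541 to 9.90%, and 1.50% in few-gene *CRTAC1*-low cells. The difference was 0.348 percentage points. Within the tags it was 0.482 in A953 and 0.129 in A954, and 0.108 in A951 and -0.304 in A952, which rest on 7 and 6 few-gene *CRTAC1*-high cells (SD over the 4 tags 0.321). A similar order was seen in cells of many genes, with medians of 1.79% in the *CRTAC1*-high and 1.38% in the *CRTAC1*-low cells. A share of 5% or more was reached by 3 of 110 few-gene *CRTAC1*-high cells (2.73%, exact interval 0.566 to 7.76%), by 11 of 313 few-gene *CRTAC1*-low cells (3.51%, 1.77 to 6.20%) and by 4 of 928 many-gene *CRTAC1*-high cells (0.431%, 0.118 to 1.10%). Among many-gene *CRTAC1*-low cells it was 2 of 3515 (0.0569%, 0.00689 to 0.205%). The interval of the few-gene *CRTAC1*-high cells overlapped those of the few-gene *CRTAC1*-low and of the many-gene *CRTAC1*-high cells and lay above that of the many-gene *CRTAC1*-low cells. The interval of the few-gene *CRTAC1*-low cells lay above those of both groups of many genes.

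**Figure D2:**
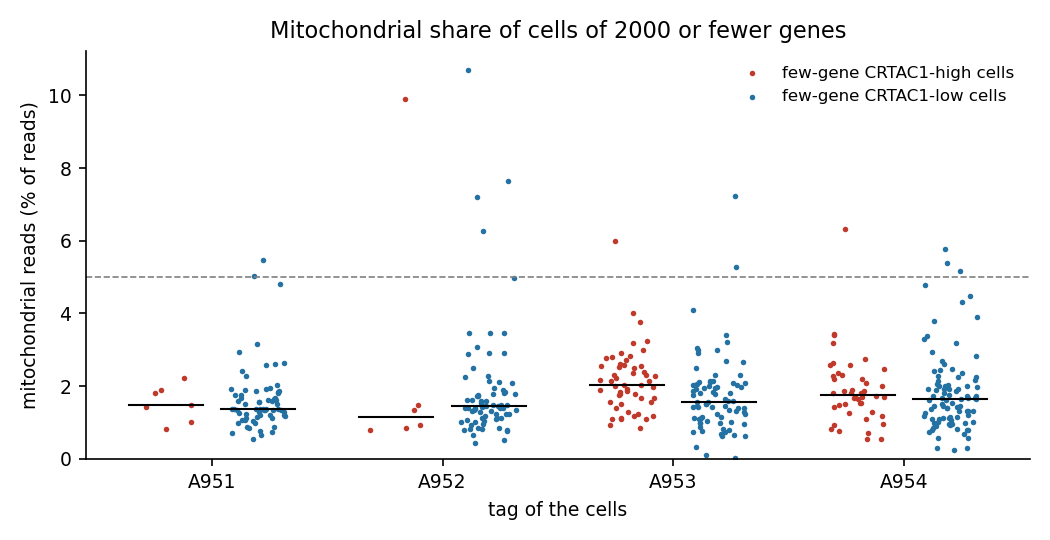
Mitochondrial reads as a percent of all reads (vertical axis) for each cell of 2000 or fewer genes, by tag and by *CRTAC1* group, with black bars at the medians and a dashed line at 5%. In tag A953 the median was 2.04% in few-gene *CRTAC1*-high and 1.56% in few-gene *CRTAC1*-low cells, and 1 cell of the first group lies above the line in each of A952, A953 and A954.

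The cells were spread unevenly over the tags. There were 53 in A953 and 44 in A954, but only 7 in A951 and 6 in A952. Cells of many genes showed the same order. Among cells of few genes, *CRTAC1* reached 1000 rpm in 8.86% of A951, 7.41% of A952, 36.1% of A953 and 30.1% of A954. Among cells of many genes, these shares were 8.55%, 7.31%, 25.9% and 23.9%. The intervals of the 2 classes overlapped in each tag, in A953 by the least (28.3 to 44.4% against 23.5 to 28.5%). *KRT19*-rich cells had the opposite order over the tags, with 7.62% and 23.9% of A951 and A952 and 0.434% and 0.463% of A953 and A954.

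**Figure D3:**
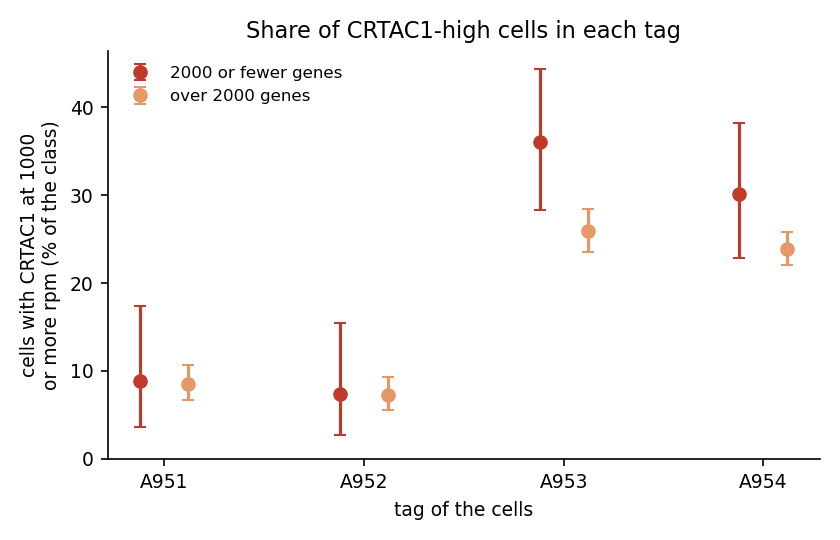
Cells with *CRTAC1* at 1000 or more rpm as a percent of cells of 2000 or fewer genes and of cells of more than 2000 genes (vertical axis), by tag. Bars are exact 95% binomial intervals, and in both classes the shares in A953 and A954 lie above those in A951 and A952.

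The share of cells with few genes was compared between *CRTAC1*-high and *CRTAC1*-low cells. Of all *CRTAC1*-high cells, 10.6% had 2000 or fewer genes (exact interval 8.79 to 12.6%), against 8.18% of *CRTAC1*-low cells (7.33 to 9.09%). The gap was widest in A953, where the shares were 14.2% and 8.99%. In A954 they were 8.40% and 6.49%, in A952 9.52% and 9.84%, and in A951 8.86% and 8.73%.

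Reads of a gene can also come from free RNA. *CRTAC1* had at least 1 read in 82.4% of the 363 *KRT19*-rich cells, but reached 1000 rpm in only 6 of them (1.65%). Of the cell barcodes, 15 also occurred in a second matrix that was not used, and 1 of them belonged to a few-gene *CRTAC1*-high cell.

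The label genes *IGFBP6* and *SULF2* were higher in few-gene *CRTAC1*-high than in few-gene *CRTAC1*-low cells. *SULF2*, a sulfatase that trims heparan sulfate outside the cell, had a read in 70.0% of the *CRTAC1*-high cells (60.5 to 78.4%) and in 41.5% of the *CRTAC1*-low cells (36.0 to 47.2%). Its pooled level was 506 against 136 rpm, a log2 ratio of 1.90, with 1.54 within A953 and 1.79 within A954. *IGFBP6*, a secreted protein that binds insulin-like growth factor 2, had a read in 60.0% (50.2 to 69.2%) against 43.5% (37.9 to 49.1%) of the cells. Its level was 1833 against 275 rpm, a log2 ratio of 2.74, with 2.13 within A953 and 1.54 within A954. The groups overlapped cell by cell. Over single cells, *IGFBP6* ran from 0 through a median of 36.7 to 20332 rpm in the *CRTAC1*-high cells, and from 0 through a median of 0 to 7909 rpm in the *CRTAC1*-low cells. Of the 110 cells, 50 had a read of both genes (45.5%), 43 of 1 of them and 17 of neither. In the few-gene *CRTAC1*-low cells 60 of 313 had both (19.2%). The shares of *IGFBP6* are limited by its reads in other cells, given with the *KRT19*-rich cells.

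Between the few-gene *CRTAC1*-high and *CRTAC1*-low cells 5215 genes were compared, those with a read in 10% or more of either group. A gene was called when its pooled rpm differed at least 2-fold and had the same direction in both A953 and A954, the tags with at least 20 cells of both groups. By this rule 424 genes (8.13%) were higher and 661 (12.7%) were lower in the *CRTAC1*-high cells, and the median log2 ratio over all genes compared was -0.01. Without the demand on direction the counts were 573 and 828. A gene with a read in under 10% of the cells of 1 group passed the filter only through the other group, and its call rests on that choice. Among the genes of the lists this holds for *S100A4*, *OMD*, *CNMD*, *IGF1R*, *SMO*, *HHIP*, *DKK3*, *NQO1*, *SLC2A3*, *NDUFA9*, *NDUFS8*, *NDUFS3*, *LOX*, *NCAM1*, *CD68* and *CD74*, named with the lists. A ratio can rest on a few cells with very many reads of a gene, so the share of cells is given beside it. Pooled levels and shares mix the tags in unequal parts. The *CRTAC1*-low cells numbered 68 in A951, 74 in A952, 79 in A953 and 92 in A954. The *CRTAC1*-high cells numbered 7, 6, 53 and 44. The pooled shares were not adjusted for this.

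The genes called higher included some of the joint surface. *PRG4*, which encodes lubricin, was read in every cell of both groups, with 25612 rpm in the *CRTAC1*-high and 10021 rpm in the *CRTAC1*-low cells (log2 ratio 1.35). It was the higher of the 2 in each tag, at 36094 against 8129 rpm in A951, 29530 against 9726 in A952, 29587 against 15133 in A953 and 18614 against 7449 in A954. Over single cells its median was 14402 rpm, with a highest value of 199665, against 4198 and 140853, so the groups overlapped. Of 11 compared genes of the superficial zone list, 5 were called higher (*PRG4*, *ABI3BP*, *ERG*, *IGFBP5* and *SEMA3A*) and 1 lower (*FAP*), with a median log2 ratio of 0.44. Over all genes compared 8.13% were higher and 12.7% lower, and this is the background of the counts of each list. *SEMA3A*, a secreted guidance cue for nerve fibres, was read in 56.4% against 32.9% of the cells (log2 ratio 2.43). *IGFBP5*, another binding protein for insulin-like growth factors, was read in 51.8% against 31.3% (2.97), with 31.0% of its reads in the *CRTAC1*-high cells from 1 cell.

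Some matrix proteins that bind collagen fibrils were also called higher, while others of the same lists were not. *LUM*, which encodes lumican, showed the widest gap in shares among the genes called higher other than *CRTAC1*, with 66.4% (56.7 to 75.1%) against 31.6% (26.5 to 37.1%) of the cells. Its level was 1194 against 184 rpm (log2 ratio 2.70, and 2.49 when the cell with the most reads was left out of each group). By tag its level was 1699 against 216 rpm in A953, 880 against 155 in A954 and 263 against 127 in A952, while in the 7 cells of A951 it was 5.70 against 249 rpm. *ASPN*, which encodes asporin, a binder of collagen and of TGF-beta, was read in 51.8% against 24.0% of the cells (log2 ratio 2.76). *CILP*, the cartilage intermediate layer protein, was read in 45.5% against 23.3% (1.70), and *ISLR*, a secreted protein with leucine-rich repeats, in 39.1% against 22.7% (2.01). Of 17 compared genes of the fibrocartilage and fibroblast matrix list, 5 were called higher (*ASPN*, *CILP*, *ISLR*, *COL1A2* and *S100A4*) and 3 lower (*CILP2*, *COL14A1* and *THBS1*), with a median of 0.62, against 8.13% and 12.7% of all genes. *FMOD*, which encodes fibromodulin, was at 12651 against 6410 rpm (0.98) and just missed the limit. *MGP*, an inhibitor of mineral deposition, was called higher at 14948 against 6885 rpm (1.12), though in A951 and A952 it was at 3887 and 4621 rpm against 5607 and 6105.

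Other genes with wide gaps in shares are given as single genes. *SEMA3D*, a semaphorin, was read in 40.9% (31.6 to 50.7%) against 14.1% (10.4 to 18.4%) of the cells, at 412 against 16.2 rpm (log2 ratio 4.67). *ACKR3*, a receptor that scavenges the chemokine CXCL12, was read in 54.5% against 27.8% (2.71), and *NTN4*, which encodes the basement membrane protein netrin-4, in 50.9% against 25.6% (1.87). *CTSK*, the collagen-cleaving protease cathepsin K, was read in 44.5% against 26.5% (1.61). *PROCR*, the endothelial protein C receptor, was read in 67.3% against 49.5% (1.65), and *BMPER*, a secreted modulator of BMP signals, in 34.5% against 17.9% (2.07). These were ranked by the gap in shares after the data were seen.

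The 12 genes with the highest log2 ratio were *CRTAC1*, *HYAL1*, *TLE4*, *SPAG17*, *ITIH5*, *SEMA3D*, *GEMIN2*, *DKK3*, *F5*, *FBP2*, *DSEL* and *CYP1B1*. Most were seen in few cells, and all but *CRTAC1*, *SEMA3D* and *CYP1B1* passed the detection filter only through the *CRTAC1*-high cells. *HYAL1*, which encodes a hyaluronidase, was read in 18 of 110 cells (16.4%) against 7 of 313 (2.24%). *DKK3*, a secreted protein of the dickkopf family, was read in 23.6% against 7.99%, at 246 against 13.1 rpm. *F5*, coagulation factor V, was read in 12.7% against 3.51%. *TLE4* and *SPAG17* rested on single cells, which held 45.1% and 58.4% of their reads. *CYP1B1*, a cytochrome P450 enzyme, was the broadest after *CRTAC1*, with a read in 60.9% against 47.0% of the cells and a level of 4097 against 382 rpm (3.42).

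Several cartilage collagens were called lower. *COL2A1*, which encodes the chain of type II collagen, was read in every cell, at 7322 rpm in the *CRTAC1*-high and 22707 rpm in the *CRTAC1*-low cells (log2 ratio -1.63). Its median per cell was 3485 against 18155 rpm, and its highest values were 55236 and 106192 rpm. The groups were far apart in A953 (3757 against 20960 rpm) and A954 (8371 against 22646 rpm), less so in A952 (11756 against 25396), and in the 7 cells of A951 the order turned (25058 against 21857). Of the 7 cartilage collagen genes compared, 4 were called lower (*COL2A1*, *COL9A1* at -1.80, *COL9A2* at -1.41 and *COL11A1* at -1.11) and none higher, with a median of -1.11. Their summed level was 15351 against 41683 rpm.

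Some other matrix genes of cartilage were called lower, and others were not. *ACAN*, which encodes aggrecan, was at 1920 against 4240 rpm (-1.14) and *CHAD*, the cell-binding protein chondroadherin, at 2944 against 9057 rpm (-1.62). *FRZB*, a secreted inhibitor of WNT signals, was at 626 against 2114 rpm (-1.76). Of 12 compared proteoglycans and link proteins, 1 was called higher (*LUM*) and 4 lower (*ACAN*, *CHAD*, *OMD* and *CNMD*), with a median of -0.76. The *CNMD* ratio rested on 1 few-gene *CRTAC1*-high cell that held 94.4% of the group's reads. Of 8 other cartilage matrix proteins 2 were lower (*MATN2* and *FRZB*) and none higher, against 12.7% lower over all genes, and nothing is read from a count this small. *BGN*, *DCN* and *FN1*, which encode biglycan, decorin and fibronectin, stayed within 2-fold, at log2 ratios of -0.57, -0.15 and -0.03. *SOX9*, the main transcription factor of chondrocytes, was at 278 against 320 rpm (-0.20).

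Several lower genes were read in fewer cells over all tags together. *TIMP3*, an inhibitor of matrix proteases, was read in 52.7% (43.0 to 62.3%) against 80.2% (75.3 to 84.5%) of the cells, at 186 against 1149 rpm (-2.63). *COL14A1*, a collagen found along fibrils, was read in 39.1% (29.9 to 48.9%) against 70.3% (64.9 to 75.3%), at 180 against 699 rpm (-1.96). *CPXM1*, a secreted carboxypeptidase-like protein, was read in 64.5% against 86.3% (-2.98) and *PDPN*, a surface glycoprotein, in 30.0% against 48.2% (-2.29). *TGFB2*, a TGF-beta ligand, was read in 20.9% (13.7 to 29.7%) against 42.2% (36.6 to 47.9%), at 21.9 against 195 rpm (-3.15). *BMP2*, a ligand of the same superfamily, differed in level but not in share, with 56.4% against 54.6% of the cells and 195 against 651 rpm (-1.74).

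The 12 lowest ratios belonged to *BHLHE41*, *CP*, *GFAP*, *CCDC80*, *FGD6*, *CSDC2*, *CCDC181*, *SCAF4*, *AKAP12*, *RARA*, *NAA25* and *FOXN2*. Of these, all but *GFAP* and *CCDC80* passed the detection filter only through the *CRTAC1*-low cells. *BHLHE41*, a transcription factor of the circadian clock, had 4 reads in 2 of 110 cells (1.82%, 0.221 to 6.41%) against a share of 13.4% (9.84 to 17.7%). *CP*, which encodes the copper carrier ceruloplasmin, was read in 7.27% against 23.3% of the cells, at 2.10 against 240 rpm. *GFAP*, an intermediate filament best known from astrocytes, was read in 10.0% against 21.7%, with no cell of the first group above 29.3 rpm, and *CCDC80*, a matrix protein, in 12.7% against 26.8%.

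**Figure D4:**
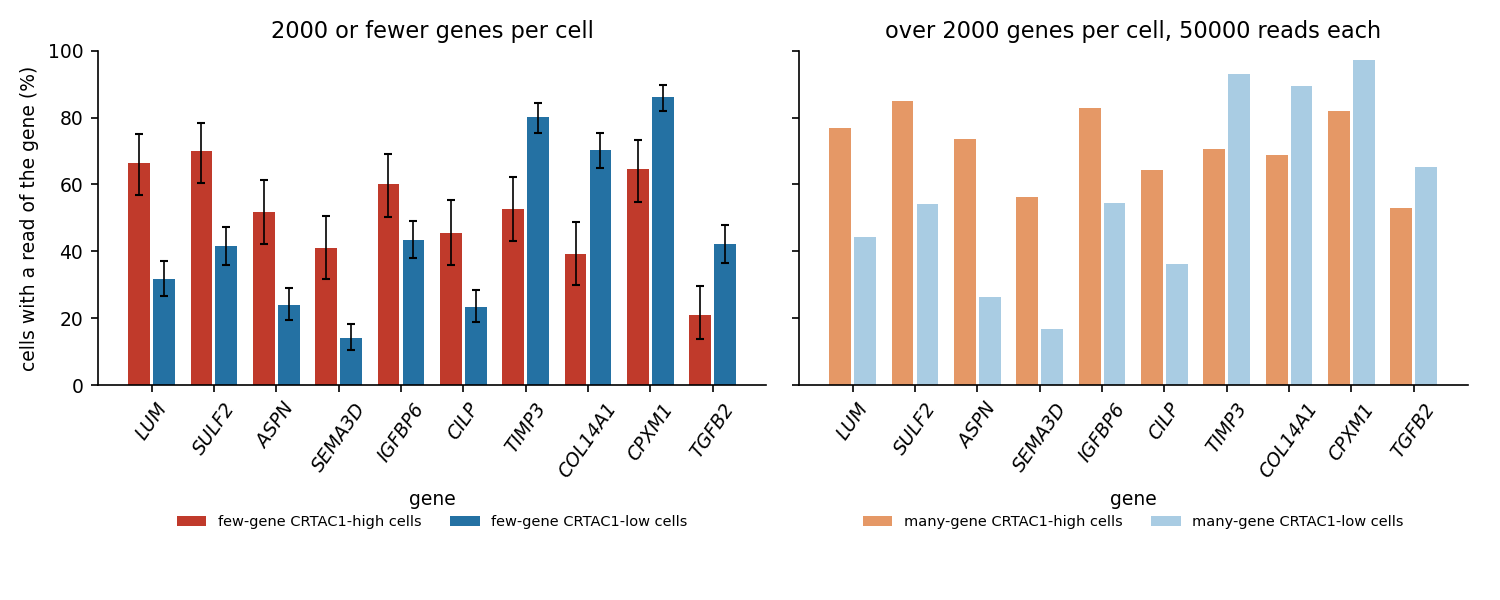
Percent of cells with a read of 6 genes called higher and 4 called lower. The left panel shows cells of 2000 or fewer genes, with exact 95% intervals, and the right panel cells of more than 2000 genes after thinning to 50000 reads each. The order of the *CRTAC1*-high and *CRTAC1*-low bars is the same in both panels for each of the 10 genes.

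The same genes were compared in the deeper cells of more than 2000 genes. Between many-gene *CRTAC1*-high and *CRTAC1*-low cells 9770 genes were compared, and 192 (1.97%) were called higher and 437 (4.47%) lower, with the direction required in all 4 tags. The cells differ from those above, but they come from the same library and were split by the same *CRTAC1* limits. *PRG4* had a log2 ratio of 1.31, *LUM* of 2.55, *SULF2* of 1.54, *IGFBP6* of 2.55, *ASPN* of 3.16 and *MGP* of 1.27. *COL2A1* was at -1.50, *COL9A1* at -1.56, *ACAN* at -1.08, *TIMP3* at -2.27 and *CPXM1* at -2.16. The cartilage collagens summed to 17695 against 44876 rpm, close to the sums in cells of few genes.

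Of the 423 genes other than *CRTAC1* that were called higher in few-gene *CRTAC1*-high cells, 333 (78.7%) were also higher in many-gene *CRTAC1*-high cells. By the full rule 56 (13.2%) were called the same way there and 4 the opposite way. Of the 661 called lower, 505 (76.4%) had the same direction, 110 (16.6%) were called the same way and 3 the opposite way. Over all genes compared, whether called or not, 69.4% of those higher and 64.8% of those lower shared their direction, and 3.28% and 6.95% were called the same way. Among 332 listed genes that could be compared in both, 265 (79.8%) had the same direction.

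**Figure D5:**
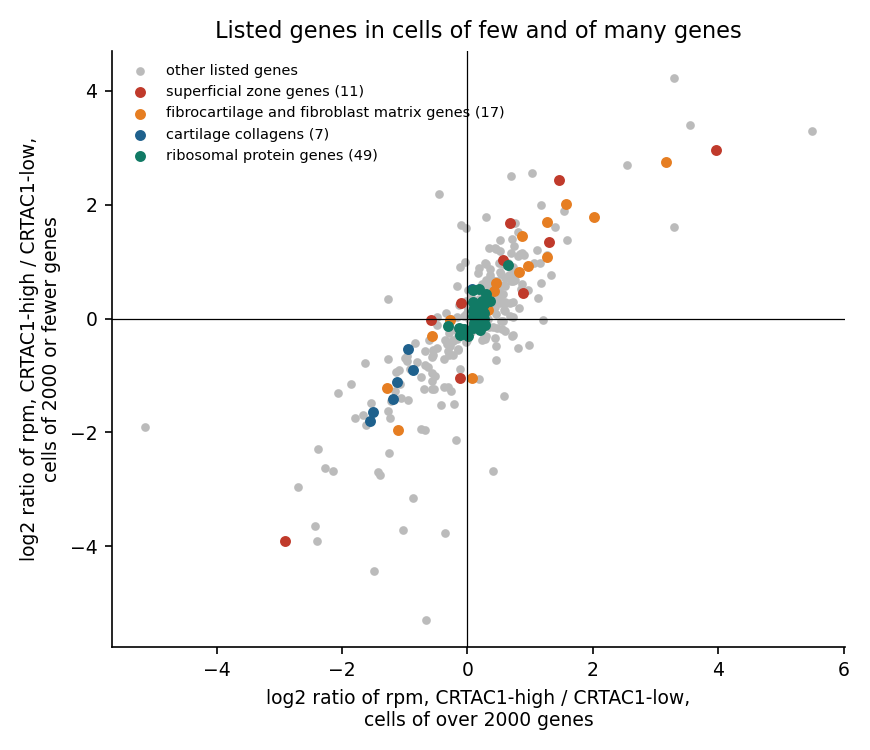
Each point is 1 of 332 listed genes, by its log2 ratio of *CRTAC1*-high to *CRTAC1*-low cells among cells of more than 2000 genes (horizontal axis) and of 2000 or fewer genes (vertical axis). The cartilage collagens lie at the lower left except for type VI collagen *COL6A3*, the ribosomal protein genes lie around 0, and 265 points lie in the quadrants of equal sign.

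Shares of cells with a read depend on depth and on free RNA, so they were set beside *KRT19*-rich cells at an equal total of reads. The *KRT19*-rich cells still showed more genes at this total, with a median of 2735. After thinning to 50000 reads, *SULF2* was read in 75.4% of 57 few-gene *CRTAC1*-high cells, 40.6% of 180 few-gene *CRTAC1*-low cells and 29.7% of 347 *KRT19*-rich cells. For *LUM* the shares were 70.2%, 32.8% and 25.4%, for *ASPN* 54.4%, 21.7% and 11.2%, and for *SEMA3D* 49.1%, 15.0% and 9.80%. For *IGFBP6* they were 64.9%, 41.7% and 46.1%, so the share in few-gene *CRTAC1*-low cells did not exceed that of the *KRT19*-rich cells. The gap in *IGFBP6* shares between the groups of few genes is given with this limit. The share of reads that free RNA gives was not measured, nor compared between tags. Of the *KRT19*-rich cells 76 carried A951 and 271 A952. Only 6 carried A953 and 10 A954, the tags of most few-gene *CRTAC1*-high cells. In 16 *KRT19*-rich cells and 133 few-gene *CRTAC1*-low cells the depth was too low for this comparison. Unthinned shares in the *KRT19*-rich cells, whose median depth was 172935 reads, were 64.2% for *SULF2*, 57.0% for *LUM*, 38.0% for *ASPN* and 73.8% for *IGFBP6*.

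Few-gene and many-gene *CRTAC1*-high cells were then compared, to see what differs at the same *CRTAC1* limit. Of 9695 genes compared, 2078 (21.4%) were called lower and 390 (4.02%) higher in the few-gene cells, with a median log2 ratio of -0.15. The count of genes called higher moved widely with the processing, in both directions, as given in the closing section. Some genes named above stayed within 2-fold and are given as single genes. The log2 ratio of few-gene to many-gene cells was 0.20 for *PRG4*, 0.26 for *MGP*, 0.09 for *FMOD*, 0.33 for *SULF2*, 0.59 for *LUM*, 0.72 for *IGFBP6*, -0.33 for *ASPN*, -0.24 for *COL2A1* and -0.17 for *ACAN*. None of the 7 cartilage collagens was called, with a median of -0.10, and of the superficial zone genes 1 of 14 was called, *EFEMP1*, which was lower. Of the fibrocartilage and fibroblast matrix list 1 of 17 was called lower. So were 1 of 12 proteoglycans and link proteins and 1 of 9 other cartilage matrix proteins. None of these 3 lists held a gene called higher, against 21.4% lower and 4.02% higher over all genes.

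Shares of cells with a read are lower in the few-gene cells by the way the groups were chosen and by their depth, so they are given as a description only. Genes with next to no reads in the 110 cells passed the detection filter only through the many-gene cells. *SETD4*, *SLPI*, *PPIE*, *CD83*, *INTS5*, *XAB2*, *BHLHE41* and *ZNF346* had the lowest ratios. *SETD4*, a methyltransferase gene, was read in 1 of the 110 cells (0.909%) against 31.8% of many-gene cells, *PPIE*, a cyclophilin of the spliceosome, in 2 (1.82%) against 27.7%, and *CD83*, a surface protein of the immunoglobulin superfamily, in 3 (2.73%) against 29.6%. With 1 to 4 reads each in the few-gene cells, no fold is given. No called gene of at least 20 rpm was both higher in level and read in a larger share of the few-gene cells.

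Some better measured genes were lower as well. *TGFB2* was read in 20.9% of few-gene against 76.3% of many-gene *CRTAC1*-high cells (log2 ratio -2.71), and after thinning the shares were 19.3% and 52.9%. *SPP1*, which encodes osteopontin, was at 108 against 413 rpm (-1.94), with 20.2% of the reads of the second group from 1 cell. Of 11 actin and contractile genes 4 were lower (*TAGLN*, *MYL9*, *TPM4* and *CNN2*), against 21.4% of all genes. Of 51 ribosomal protein genes 2 were called lower and none higher, with a median of -0.02.

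Lists of general cell functions were compared between few-gene *CRTAC1*-high and *CRTAC1*-low cells in the same way. None of 49 ribosomal protein genes and none of 5 translation factor genes was called, with medians of 0.05 and -0.16, against 8.13% higher and 12.7% lower over all genes. That background was not matched for level. Of 52 listed ribosomal protein genes a cell had a read of a median of 44 in both groups, whereas the background also holds genes read in few cells. Of 18 genes of the secretory pathway and collagen processing 2 were lower (*PLOD1* and *LOX*). Of 54 nuclear genes of oxidative phosphorylation, 5 were higher (*NDUFA9*, *NDUFS3*, *NDUFV2*, *COX7B* and *ATP5F1E*) and 2 lower (*NDUFAF4* and *NDUFS8*), with a median of 0.40. In cells of many genes the median of this list was 0.49.

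The stress lists are to be read against the 8.13% higher and 12.7% lower over all genes. Of 8 genes of p53, apoptosis and growth arrest 1 was higher (*DDIT3*), and of 9 heat shock genes 1 was higher (*DNAJB4*) and 1 lower (*CRYAB*). Of 10 antioxidant and metal-binding genes 2 were higher (*NQO1* and *GPX1*), and of 15 hypoxia and glycolysis genes 2 were lower (*SLC2A3* and *HK2*), while *HIF1A*, the oxygen-regulated transcription factor, was at 655 against 594 rpm (0.14). Of 11 immediate early genes 4 were lower (*FOS*, *FOSB*, *FOSL2* and *NR4A1*) and 1 was higher. That gene, *IER3*, an early response gene, was at 2040 against 346 rpm (2.56) but was read in 61.8% against 54.0% of the cells. Of 10 inflammation genes 1 was higher (*TNFAIP6*, which links hyaluronan chains) and 1 lower (*IL6*), and none of 3 complement genes was called.

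Signalling and other lists were small after the detection filter, and 8.13% higher and 12.7% lower over all genes is the background of their counts too. Of 13 BMP, GDF and TGF-beta genes 2 were higher (*BMP6* and *GDF10*) and 3 lower (*BMP2*, *GREM1* and *TGFB2*). Of the hedgehog genes, the ligand-binding inhibitor *HHIP* was higher, and the transducer *SMO* and the transcription factor *GLI1* were lower. *HHIP* was read in 11.8% against 7.67% of the cells with 61.5% of its reads from 1 cell, and so passed the filter only through the *CRTAC1*-high cells, and *GLI1* in 22.7% against 26.8%. Of 4 WNT genes *DKK3*, which passed the filter only through the *CRTAC1*-high cells, was higher and *FRZB* and *WIF1* were lower. Of 5 genes of the insulin-like growth factor system *IGFBP5* was higher and *IGF2* and *IGF1R* were lower. Of 5 lipid transport genes 4 were lower (*APOD*, *APOE*, *LPL* and *FABP3*), with a median of -1.50. Of 15 proteases and inhibitors 2 were higher (*CTSB* and *CTSK*) and 2 lower (*TIMP3* and *SERPINA3*). Of 6 mineralization genes *MGP* was higher and *SPP1* and *PTH1R* were lower, and of 8 chondrogenic transcription factors *NFATC1* and *FOXO1* were lower. Of 7 genes of sulfatases and heparan sulfate only *SULF2* was called, and of 9 actin genes *TAGLN* and *CNN2* were lower. None of 3 osmolyte transport genes was called.

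Markers of other cell types were summed in each group. Of 10 counted immune markers *CD14*, *LYZ* and *AIF1* had no read in the 110 cells. The exact interval for 0 of 110 reaches 3.30% of cells with a read and does not limit the share expressing these genes at this depth. *PTPRC*, the pan-leukocyte antigen, had a read in 1 cell. The list summed to 467 rpm, mostly *CD74*, the chain that assembles with class II molecules, at 366 rpm in 13.6% of the cells, against 37.3 rpm in 3.51%. Of 2 markers compared, which both passed the filter only through the *CRTAC1*-high cells, both were called higher, *CD74* and the lysosomal *CD68*, whose log2 ratio was 2.51 and was 0.44 without the cell with the most reads of each group. *CD74* was also higher in many-gene *CRTAC1*-high cells, at 111 against 2.48 rpm. The few-gene *CRTAC1*-low cells summed to 1202 rpm, of which *S100A9* made 632 and *S100A8* 504 rpm, and 3 cells of A953 were at 1000 or more rpm of both together. Without these 3 cells 440 genes were called higher and 670 lower.

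Notochordal markers summed to 7.54 rpm in few-gene *CRTAC1*-high cells against 282 rpm in few-gene *CRTAC1*-low cells, where *SRGN* led with 155 rpm. By tag the few-gene *CRTAC1*-low cells summed to 53.1 rpm in A951, 451 in A952, 621 in A953 and 37.5 in A954. Tag A953 also held the 3 cells rich in *S100A8* and *S100A9*, and their part in this sum was not tested. *FOXA2* and *NOTO* had no read in the few-gene *CRTAC1*-high cells. *KRT19* had a read in 2 of these cells (1.82%), a count limited by the choice of cells with fewer than 5 *KRT19* reads. Of 2 markers compared 1 was lower (*NCAM1*). The endothelial list summed to 392 against 125 rpm and was nearly all *ERG*, which chondrocytes of the joint surface also express. The fibroblast list summed to 941 against 759 rpm and was led by *THY1*, at 772 against 350 rpm. Of its 3 markers compared 1 was called higher and 1, *PDPN*, lower, so the list did not move as a whole. The bone list summed to 427 against 175 rpm, led by *CTSK*. Mural markers summed to 54.0 against 26.0 rpm, epithelial markers to 1.40 against 1.13 rpm and red blood cell markers to 0.175 against 0.0596 rpm. Their part in the ratios was not tested.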

How the data were processed

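Cells of 1 pooled library were prepared by the authors with TAS-seq, a bead-based method, and aligned to the cynomolgus monkey genome with HISAT2 2.2.1. Reads were assigned to whole genes with featureCounts 2.0.2, allowing multiple mapping. The genome build is not given in the sources used here. The deposited values are raw read counts for each gene in each cell, not normalized and without molecular identifiers, so reads shared by near-identical or overlapping genes are uncertain. The tag of each cell was read from its column name, and 42 cells with the tags of doublets and 7 without a tag were left out. No doublet caller was run. A matrix with 1358 cell columns that the labels do not list was not used, and the tag library holds no gene expression.

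Genes with a read counted as detected. Reads were summed over the cells of a group and divided by the summed total to give rpm, and log2 ratios were taken with a floor of 3 reads per group. The limits and the call rule stand in the text. Shares have exact Clopper-Pearson intervals at 95%. Since only 1 library of gene expression was used here, no p-value was computed. The paper combined it with earlier data of both tissues made by the same method, which were not used here. The members and the 37 gene lists (478 of 566 genes counted, none of the 4 nuclear-retained RNAs among them) were chosen with earlier results of these data known. Named were listed genes, the 12 highest and 12 lowest ratios to few-gene *CRTAC1*-low cells and up to 8 and 8 to many-gene *CRTAC1*-high cells, among called genes with at least 20 rpm in the higher group and a share of cells moving the same way, and *CRTAC1*, *KRT19*, *IGFBP6* and *SULF2*. Genes ranked by the gap in shares were added after the data were seen. Some listed genes, and the counts of their lists, are not reported here. The calculation was tested on simulated data. Python 3.11.15, numpy 2.4.6, scipy 1.17.1 and pandas 2.3.3 were used.

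The alternatives were limits on mitochondrial share and genes, the mean of the rpm of each cell, equal weight of tags, thinning to 50000 reads, matching on reads within 10%, leaving out *CRTAC1* and mitochondrial genes, limits of 1500 and 2500 genes, *CRTAC1* at 2000 rpm, no *KRT19* read, no detection filter, no demand on direction and leaving out each tag. Leaving out the cell with the most reads of each gene and leaving out cells rich in *S100A8* and *S100A9* were added after the data were seen.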

Additional observations from a re-analysis of the deposited data

Results flagged for a closer look

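For 4 listed genes the ratio of few-gene *CRTAC1*-high to few-gene *CRTAC1*-low cells went in opposite directions, each past 2-fold, in the tags A953 and A954. The difference between the tags was not tested, and none of the 4 was called. For *THBS4*, a matrix protein of tendon and superficial cartilage, the log2 ratio was -7.93 in A953 and 3.86 in A954, with a read in 10.0% of the *CRTAC1*-high and 23.3% of the *CRTAC1*-low cells. For *CXCL8*, a chemokine that attracts neutrophils, it was 2.36 and -3.10, and 1 cell held 43.6% of the reads in the *CRTAC1*-high cells. For *CCL2*, a chemokine that attracts monocytes, it was 4.85 and -1.73, and 1 cell held 51.4% of the reads. For *CD34*, a marker of vessels and stromal cells, it was -3.27 and 2.13, with a read in 12 of the 110 cells.

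Among cells with 5 or more *KRT19* reads, which were set aside, 1 cell met the limits on genes and *CRTAC1*.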

How the results depend on the processing

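The number of few-gene *CRTAC1*-high cells followed its limits, with 53 at 1500 or fewer genes, 194 at 2500 or fewer genes, 57 that were deep enough for thinning, and 57 to 104 when 1 tag was left out. Genes called higher against few-gene *CRTAC1*-low cells were 643 with cells matched on reads, 649 at 1500 genes and 1512 with no detection filter, and 464 to 757 without 1 tag (757 without A953 and 726 without A954). Genes called lower were 1510 with no detection filter and 726 to 1082 without 1 tag (1082 without A953 and 1016 without A954). Without A953 or A954 the direction had to hold in only 1 tag. Against many-gene *CRTAC1*-high cells, genes called higher were 655 with equal weight of tags, 1544 in 22 pairs matched on reads, where no tag held 20 cells, 1006 at 1500 genes, 2959 with no detection filter, 823 with no demand on direction, 104 without the cell with the most reads, and 411 to 1073 without 1 tag (1073 without A953 and 939 without A954). Genes called lower were 3182 at 1500 genes, 1223 at 2500 genes and 2154 to 3044 without 1 tag. The difference in median mitochondrial share was 0.224 to 0.443 percentage points without 1 tag and kept its sign under each alternative run for it. With no detection filter the median log2 ratio turned from -1.16 to 0.56 for the WNT list and from 1.14 to -2.29 for the fibroblast list, since more genes were then compared. The 61 single genes followed here were chosen among genes already called. None reversed, which this choice favoured, so it is a description only. Of their 1098 values 828 stayed within the spread between A953 and A954. That spread rests on 2 tags and is widest for genes that differ most between them.

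No paired analysis was made because 1 library was used and the tags are not labelled as replicates. Tags A951 and A952 held 7 and 6 cells, too few for the call rule, so their own values are imprecise. Counts of reads without molecular identifiers limit the precision of genes seen in few cells.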
